A study of Danio rerio with 8 samples.

Results

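The genes described here are the Rab GTPases and the endosomal sorting genes of mpeg1:mCherry positive cells sorted from the injured zebrafish heart. They were taken by name, as every gene whose symbol begins with rab and a digit, vps, snx, chmp, stx, vamp or vti1. The rule found 123 of the 10479 genes in the deposited table. Of these, 120 passed a filter on low values and were tested, while rab18a, rab1aa and STX3 lay too low. Adult zebrafish (Danio rerio) aged 6 to 9 months carried a pair of transgenes, wt1b:eGFP and mpeg1:mCherry. The first marks cells with activity of wt1b, the gene of a zinc finger transcription factor. The second marks cells with activity of the promoter of mpeg1, a macrophage marker. Lymphocyte markers were also measured in the sorted cells, as given below. The ventricle was injured by freezing (cryoinjury), and 4 days later cells were sorted by flow cytometry from these hearts. One population was mCherry single positive and the other eGFP and mCherry double positive, and both carry both transgenes and the injury. Each population had 4 libraries, numbered 1, 2, 4 and 5, each from a pool of 5 to 7 hearts, with libraries 1 and 2 built in batch 1 and 4 and 5 in batch 2.

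Rab GTPases are molecular switches that recruit tethers, motors and fusion factors to the membranes of one compartment and so set its identity. Sorting nexins, retromer and ESCRT complexes then decide whether a receptor or ligand taken up by the cell is sent back to the surface, to the Golgi or to the lysosome. HOPS and CORVET complexes and SNARE proteins (syntaxins, VAMPs and VTI1 proteins) carry out the fusion steps. In macrophages this machinery matures phagosomes into degrading compartments and carries cytokines and surface receptors to the plasma membrane.

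Values are the authors' normalized counts on a linear scale, whose column totals lay between 803220 and 1021901. Read numbers are unknown and a correction for gene length is not stated, so levels are compared between libraries and not between genes. Transcripts of wt1b lay between 0.122 and 0.469 in single and between 13.6 and 63.1 in double positive libraries, so the sort matched its label. The symbol MPEG1, of the gene behind the mCherry reporter, has 3 identifiers, and which of them the reporter promoter belongs to is not known here. The first, MPEG1 ENSDARG00000043093, rose from a mean of 30.3 to 393 (log2 fold change 4.33, limma adjusted p = 0.000734), while MPEG1 ENSDARG00000055290 (-0.42) and MPEG1 ENSDARG00000078569 (0.08) did not pass. Of 16 identifiers for macrophage markers, 9 were higher and 1 lower in double positive libraries, with sums of 1423 to 2798.5 in single and 3210.5 to 6725 in double positive libraries. Lymphocyte markers went the other way, with 7 of 8 lower and sums of 724 to 1619 against 58.5 to 162. In every double positive library the B cell genes PAX5, cd37, ighm and cd79a lay under 1. Endothelial markers were lower for 1 of 7 (sums of 239.96 to 567 against 93.6 to 252), and neutrophil markers higher for 1 of 4 (899 to 1036 against 1386 to 2454). No cardiomyocyte (8), fibroblast and epicardial (6) or erythroid and thrombocyte (2) marker passed the test over both batches. Their summed ranges overlapped, at 33.6 to 224 against 16.1 to 167, 115 to 899.89 against 97.4 to 1049, and 0.979 to 15.6 against 0.408 to 17.8. The batches differed, with median log2 fold changes of -2.33 in batch 1 and 2.96 in batch 2 for fibroblast and epicardial markers. For cardiomyocyte markers they were -3.22 and 1.12. In batch 2 alone COL1A1 ENSDARG00000035809, COL1A2 and DCN passed (limma adjusted p = 0.0057, 0.0112 and 0.027), while ALDH1A2 and POSTN did not. No marker is at exactly 0, because the table holds no 0. In these bulk libraries, fewer cells of a type and less RNA per cell cannot be told apart. Double positive library 1 stood apart, with a value under 1 for 39 of the 120 trafficking genes (32.5%) and for 40.5% of all tested genes. The other 7 libraries had 6 to 17 such trafficking genes (5.0% to 14.2%).

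Most of the trafficking machinery was measured in both populations with no difference past the test, and 4 genes rose in double positive cells. These were SNX18, snx10b, RAB7A ENSDARG00000021287 and rab11fip1b, and 0 of the 120 fell (limma, Benjamini-Hochberg adjusted p under 0.05 over all 10127 genes tested). The 4 make up 3.33% of the tested trafficking genes, against 3.88% of all tested genes called higher, 2.81% called lower and 6.69% called in either direction. The share is near or below the background, so it is no result about the family as a whole. The macrophage marker list moved in the same direction as the 4 genes (sums of 1423 to 2798.5 against 3210.5 to 6725), and its part in their rise was not tested. At an unadjusted p under 0.05, 17 were higher (9.05% of all genes were) and 3 lower (10% of all genes). The median log2 fold change (double minus single positive, on log2 of the value plus 1) was 0.15 for the 120 genes and -0.16 for all tested genes. It was -0.04 and -0.40 in batch 1, and 0.48 and 0.08 in batch 2. Both medians moved with single libraries, to 0.40 and 0.01 without double positive library 1 and to 0.0414 and -0.26 without double positive library 2, and the median of the 120 lay between those values on leaving out any other. Log2 fold changes are to be read against that median. With median centring of the libraries the medians were 0.43 and 0.12, and the split of all calls changed from 393 higher and 285 lower to 542 and 220. Leaving out a library moved the number of trafficking genes called higher from 4 to 7 without double positive library 1, to 2 without double positive library 4 or single positive library 5, and to 1 without double positive library 5. Of the 120, 1 was called lower without double positive library 1 (SNX29) and 1 without double positive library 2 (STXBP5).

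**Figure D1:**
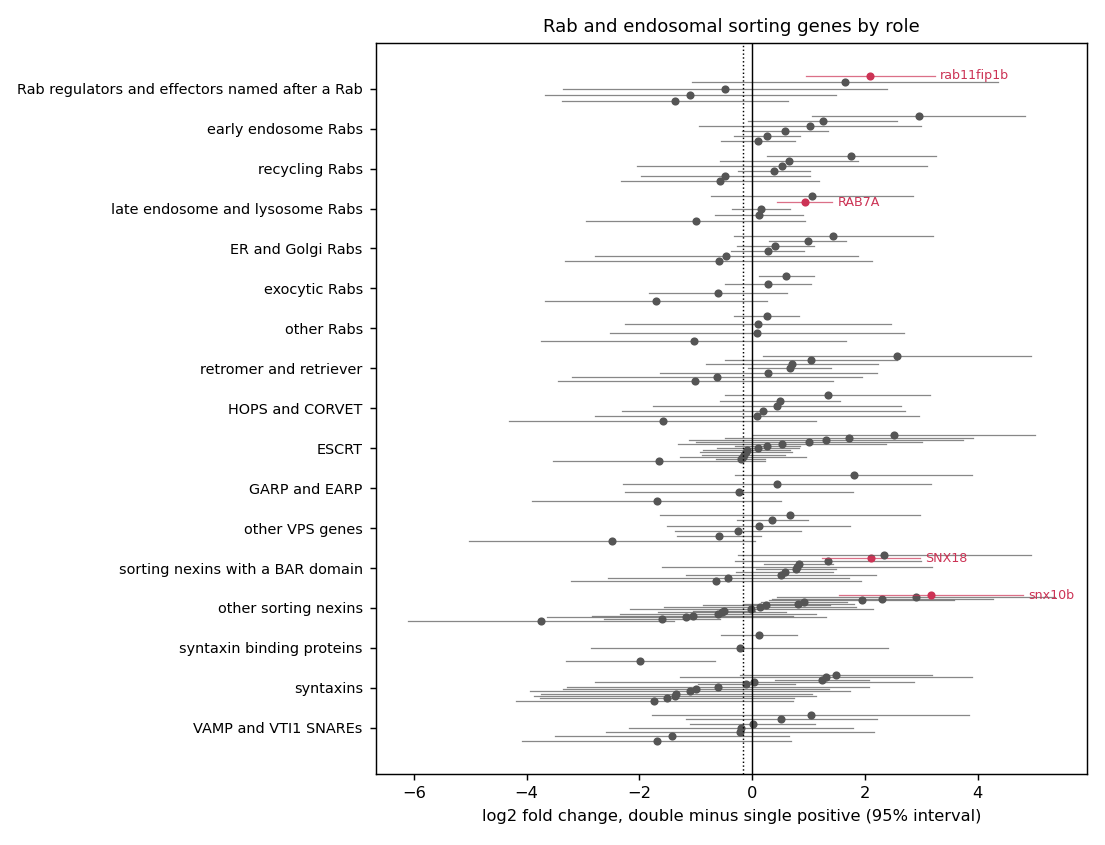
Log2 fold changes of the 120 tested trafficking genes, double minus single positive libraries (x axis), by role (y axis), as points with 95% intervals from the limma fit. The 4 genes called higher are red, the solid line is 0 and the dotted line the median of all tested genes (-0.16). Most intervals cross 0.

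SNX18 encodes a sorting nexin with a membrane-bending BAR domain, which acts with dynamin in endocytosis and in autophagosome formation. Across libraries 1, 2, 4 and 5 of each population, the order kept for all genes here, the single positive cells had 41.03, 134, 44.5 and 49.8 normalized counts and the double positive cells 159.9, 259.9, 368 and 293. Every double positive library was above every single positive one, and single positive library 2 was well above the other three of its population. The log2 fold change of 2.11 (SE 0.41) had a limma adjusted p of 0.0049, and the estimate was 1.44 within batch 1 and 2.78 within batch 2. SNX18 was past the threshold without any single library (adjusted p from 0.000231 to 0.0341). It was the only one of the 4 of which this held. The call of SNX18 was lost in batch 1 alone (limma adjusted p = 0.430) and without the mean-variance trend (0.105).

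The second sorting nexin, snx10b, is a paralog of SNX10, which in mammals is needed for bone resorption by osteoclasts, cells of the macrophage lineage. In single positive libraries snx10b had 23.4, 8.49, 0.907 and 22.4 normalized counts, and in double positive libraries 81.6, 85.6, 76.3 and 122. The double positive values lay close together, while the single positive ones ranged widely, with library 4 lowest. The log2 fold change of 3.17 (SE 0.78) had a limma adjusted p of 0.0195, and the estimate was 2.47 within batch 1 and 3.87 within batch 2. Without double positive library 4 the adjusted p was 0.0835, and without double positive library 5 it was 0.134. The call was also lost in batch 1 alone (limma adjusted p = 0.341), in batch 2 alone (0.0502) and without the mean-variance trend (0.103). The paralog SNX10 had 0.0720 to 2.10 in the single positive and 1.502, 30.9, 11.97 and 31.99 in the double positive libraries, a log2 fold change of 2.91 that did not pass (adjusted p = 0.175). Its double positive library 1 lay within the single positive range, and SNX10 passed without that library (3.85, adjusted p = 0.0384) and with quantile normalization (0.0368).

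RAB7A is the Rab of late endosomes and controls their fusion with lysosomes, as well as the last steps of phagosome maturation. The symbol is carried by 3 identifiers. RAB7A ENSDARG00000021287 had 333, 555, 294 and 320.1 in the single positive and 873, 633, 693 and 606 in the double positive libraries. The populations did not overlap, with single positive library 2 nearest to the double positive values. Its log2 fold change of 0.93 (SE 0.23) had a limma adjusted p of 0.0202, and the estimate was 0.79 within batch 1 and 1.08 within batch 2. The call was lost without any of 5 libraries (double positive 4 or 5, single positive 1, 4 or 5), at adjusted p from 0.0597 to 0.0818. It was also lost in batch 1 alone (limma adjusted p = 0.377), in batch 2 alone (0.0694) and without the mean-variance trend (0.332). RAB7A ENSDARG00000020497 had 102 ± 19.1 and 115 ± 40.4 (SD, n = 4 each), giving a log2 fold change of 0.12 (95% interval -0.67 to 0.90). RAB7A ENSDARG00000087243 had 79.4 ± 57.0 and 56.5 ± 45.2 (SD, n = 4 each), with 1.8 in double positive library 1 and 51.3 to 112 in the other double positive libraries. Reads that fit several RAB7A copies may have been shared between them by the authors' counting, so these values are uncertain.

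The fourth gene, rab11fip1b, encodes a Rab11 effector of the recycling endosome, which returns receptors to the cell surface. Its normalized counts were 47.0, 33.1, 24.1 and 9.16 in the single positive and 99.0, 129, 55.5 and 190.6 in the double positive libraries. The lowest double positive value, in library 4, was above the highest single positive value. The log2 fold change of 2.10 (SE 0.54) had a limma adjusted p of 0.0275, and the estimate was 1.49 within batch 1 and 2.70 within batch 2. The call was lost without double positive library 5 (adjusted p = 0.193) and without single positive library 2 (0.0559) or 5 (0.0868). It was also lost in batch 1 alone (limma adjusted p = 0.341), in batch 2 alone (0.0574), with the replicate block (0.0552) and without the mean-variance trend (0.126).

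**Figure D2:**
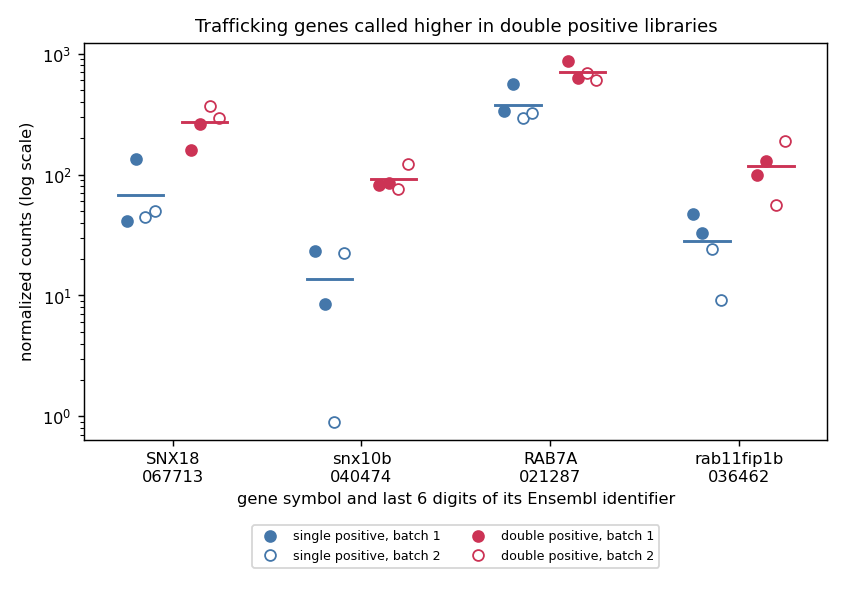
Normalized counts on a log scale (y axis) of the 4 trafficking genes called higher, in each of the 4 single positive (blue) and 4 double positive (red) libraries. Filled points are batch 1, open points batch 2 and bars the means. For each gene all double positive points lie above all single positive points.

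Groups that did not overlap were seen for 15 of the 120 genes (12.5%), against 14.1% of all tested genes. Double positive libraries were above in 12 (10% against 7.12% of all genes) and below in 3 (2.5% against 7.0%). The 12 comprise the 4 called genes and RAB20, rab5b, RAB14, VPS35, SNX1, SNX9 ENSDARG00000069302, SNX13 and STX11 ENSDARG00000044039, none of which passed at an adjusted p under 0.05. The 3 are snx22, SNX29 and STXBP5, which did not pass either. Genes of both sets are described with their roles below.

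Early endosome Rabs had a log2 fold change above 0 in 6 of 6 tested genes, with a median of 0.80 and no call, and in 5 of 6 with quantile normalization. For comparison, here and in the role groups below, 71 of the 120 trafficking genes and 4431 of all 10127 tested genes were above 0. RAB5 proteins drive the fusion of newly formed endosomes. RAB5A ENSDARG00000018602 had 212, 200.05, 219 and 155 in single positive and 119, 244, 246 and 270.2 in double positive libraries, so that double positive library 1 was the lowest of all 8. Its log2 fold change was 0.11 (95% interval -0.54 to 0.76). RAB5A ENSDARG00000007257 and RAB5C gave 0.58 (-0.18 to 1.34) and 0.26 (-0.32 to 0.84). The related rab5b had 11.3 to 27.4 in single and 40.0 to 54.4 in double positive libraries, a log2 fold change of 1.25 (adjusted p = 0.294). RAB20, which in mammals acts on maturing phagosomes, had 15.7, 8.56, 1.06 and 5.64 in the single positive and 20.2, 57.4, 74.0 and 83.7 in the double positive libraries. All double positive values were above the single positive ones, but library 1 only just. For RAB20 the log2 fold change came to 2.95 with SE 0.89 (limma adjusted p = 0.0571), so that it missed the threshold. RAB20 passed in 6 of 18 alternative settings, which were batch 2 alone (adjusted p = 0.0187), median centring (0.0136), no batch covariate (0.0278), a pseudocount of 4 (0.0464), quantile normalization (0.0148) and leaving out double positive library 1 (0.00969).

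Among recycling Rabs, 0 of 6 passed and the median log2 fold change was 0.46, with -0.50 in batch 1 and 0.59 in batch 2. RAB11A, the main Rab of recycling endosomes, had 183, 212, 133 and 164 in the single positive and 164, 174, 296 and 299.8 in the double positive libraries. Both double positive libraries of batch 2 were above all others, while those of batch 1 lay within the single positive range. The log2 fold change was 0.39 (95% interval -0.25 to 1.04), with -0.22 in batch 1 and 1.01 in batch 2. RAB14, which works between endosomes, the Golgi and the surface, had 4.52 to 36.5 in single and 37.7 to 69.1 in double positive libraries, a log2 fold change of 1.76 (adjusted p = 0.175).

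Late endosome and lysosome Rabs include the called RAB7A identifier, 1 of 5 tested, with a group median of 0.15 that was -0.0159 with quantile normalization, 0.65 in batch 2 and 0.43 without double positive library 1. RAB32, a Rab of lysosome-related organelles, had 259.9, 369, 219 and 305 in the single positive and 325, 352, 294 and 294 in the double positive libraries. The double positive values fell inside the single positive range, and the log2 fold change was 0.15 (95% interval -0.36 to 0.67).

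Secretory Rabs did not pass the test. Of 6 tested Rabs of the ER and Golgi the highest mean was that of rab1ba, of the RAB1 family that moves cargo from the ER to the Golgi. It had 103, 218, 110.3 and 94.1 in the single positive and 198, 236, 290.3 and 270.2 in the double positive libraries, and only single positive library 2 reached into the double positive range. The log2 fold change came to 0.99 with SE 0.32 (limma adjusted p = 0.0831), past the threshold with median centring (0.0446), without double positive library 1 (0.037) and without single positive library 2 (0.0296). RAB1B and RAB2A, which act on the same route, gave 0.28 (95% interval -0.37 to 0.93) and 0.41 (-0.27 to 1.09).

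RAB8B and RAB10 serve transport from the Golgi and endosomes to the plasma membrane. RAB8B had 410.1, 525, 339.5 and 602 in the single positive and 575, 663, 883 and 704 in the double positive libraries, with single positive library 5 above double positive library 1. Its log2 fold change was 0.61 (95% interval 0.12 to 1.09, limma adjusted p = 0.148), and that of RAB10 was 0.28 (-0.49 to 1.04). Of the 4 exocytic Rabs tested only these 2 were above 0, and the lowest gave -1.71. The group median was -0.16. The large, atypical Rab gene rab44 had 213 ± 44.2 and 253 ± 38.96 (SD, n = 4 each), giving a log2 fold change of 0.26 (95% interval -0.32 to 0.83).

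Retromer, the coat that retrieves cargo from endosomes, had a median log2 fold change of 0.66 over 7 tested genes with its relative retriever, and 0 passed. Its core subunit VPS35 had 85.1, 65.8, 78.6 and 75.4 in the single positive and 129, 99.8, 117 and 141 in the double positive libraries. All double positive values were above all single positive ones, and the log2 fold change was 0.66 (95% interval -0.07 to 1.40, limma adjusted p = 0.321). The partner subunits VPS26A and VPS29 gave 2.57 (0.19 to 4.95) and 1.04 (-0.49 to 2.56), with overlapping groups. Of the 7 tested genes, 5 had a log2 fold change above 0, and the lowest gave -1.01. For VPS26A, single positive library 1 had 17.6 and the other three 0.562 to 2.97, against 15.9 to 38.7 in double positive libraries. The sorting nexins that shape tubules for retromer cargo did not pass either. SNX1 had 145, 116, 168 and 203 in the single positive and 365, 233, 315 and 212 in the double positive libraries, a log2 fold change of 0.82 (SE 0.29, limma adjusted p = 0.118), and SNX5 gave 0.58 (95% interval -0.28 to 1.44). SNX9 ENSDARG00000069302, an endocytic nexin of the same family as SNX18, had 100.5 ± 26.6 and 170.4 ± 29.6 (SD, n = 4 each), giving a log2 fold change of 0.78 (adjusted p = 0.208).

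HOPS and CORVET, the tethers of late and early endosomes, had 0 of 6 tested subunits past the threshold and a median of 0.32. That median was 1.05 without double positive library 1, -0.00903 in batch 1 and 0.52 in batch 2. VPS39 had 51.0, 32.03, 32.4 and 47.9 in the single positive and 88.9, 37.98, 43.8 and 69.1 in the double positive libraries. The groups overlapped, and the log2 fold change was 0.49 (95% interval -0.56 to 1.55). VPS18 had 17.5 ± 12.5 and 39.6 ± 21.3 (SD, n = 4 each), giving a log2 fold change of 1.34 (-0.48 to 3.16). That was the highest of the 6 subunits, of which 5 were above 0 and the lowest gave -1.58.

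ESCRT genes, which sort ubiquitinated cargo into multivesicular bodies and repair membranes, held no call. Of 13 tested, 0 passed and the median was 0.11, or -0.0245 with quantile normalization, 0.31 in batch 1 and -0.17 in batch 2. The ESCRT-III filament gene chmp4ba had 627, 536, 634 and 496 in the single positive and 463, 522, 545 and 457 in the double positive libraries. The values overlapped, and the log2 fold change of -0.20 (SE 0.21, 95% interval -0.64 to 0.23) was 0.08 with median centring. CHMP2A, another filament subunit, and VPS4B, the ATPase that disassembles the filament, gave 0.27 (-0.31 to 0.85) and 0.11 (-0.62 to 0.83).

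The remaining VPS genes had 0 calls. VPS13C, a lipid transfer protein at contacts between the ER and late endosomes, had 188 ± 62.5 and 235 ± 39.04 (SD, n = 4 each), giving a log2 fold change of 0.36 (95% interval -0.27 to 0.99). VPS50 ENSDARG00000002880, of the EARP tether, ranged from 0.864 to 20.4 in single and from 0.325 to 34.97 in double positive libraries. Its log2 fold change was 0.45 (95% interval -2.29 to 3.18), and the other tested identifier of that symbol gave -1.70 (-3.91 to 0.52). VPS72 matches the name rule but encodes a subunit of a chromatin complex. It had 11.2 to 30.7 in single and 0.414 to 15.2 in double positive libraries, a log2 fold change of -2.49 (adjusted p = 0.273).

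Sorting nexins without a BAR domain went both ways, with 8 of 16 log2 fold changes above 0 and snx10b the one call. SNX20, which binds the leukocyte adhesion molecule PSGL1, had 565, 545, 464 and 393 in the single positive and 273, 320 (319.5), 558 and 286 in the double positive libraries. Double positive library 4 alone lay in the single positive range, and the log2 fold change was -0.50 (95% interval -1.06 to 0.05, limma adjusted p = 0.32). SNX29 had 84.2 to 145 in single and 16.5 to 70.3 in double positive libraries, a log2 fold change of -1.60 (adjusted p = 0.0592), and passed without double positive library 1 (0.0072), without the batch covariate (0.0337), with a pseudocount of 4 (0.0473) and with quantile normalization (0.0237). Values of snx22 were 48.1, 8.34, 12.6 and 27.2 in the single positive and 0.311, 0.249, 1.11 and 0.560 in the double positive libraries, a log2 fold change of -3.75 (SE 1.12, limma adjusted p = 0.0534). It passed without the batch covariate (0.0262) and without the mean-variance trend (0.0251). The lymphocyte marker list, 7 of 8 lower with sums of 724 to 1619 against 58.5 to 162, moved in the same direction as snx22 and SNX29, and its part in their values was not tested. SNX13 had 1.45 to 19.1 in single and 21.5 to 61.3 in double positive libraries, a log2 fold change of 2.31 (adjusted p = 0.175).

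Fusion proteins held no call. Of 12 tested syntaxins, 4 had a log2 fold change above 0, and the median was -0.80. That median was -2.09 in batch 1, 0.09 in batch 2 and -0.0923 without double positive library 1. STX11 is a SNARE of immune cells whose loss in humans impairs the release of lymphocyte granules, and its symbol is carried by 3 identifiers. STX11 ENSDARG00000044039 had 51.1, 45.4, 42.99 and 58.0 in the single positive and 132, 75.2, 120.5 and 156 in the double positive libraries. The groups did not overlap, and the log2 fold change came to 1.24 with SE 0.40 (limma adjusted p = 0.0761, or 0.0493 without the batch covariate). STX11 ENSDARG00000029290 and STX11 ENSDARG00000042231 had at most 15.3 in any library, with log2 fold changes of -0.997 and -1.74 (adjusted p = 0.691 and 0.460). STX16, a SNARE of transport from endosomes to the Golgi, gave 1.49 (95% interval -0.22 to 3.19).

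STXBP2, the partner of STX11, had 220.3, 104, 121 and 147 in the single positive and 137, 156, 157 and 171 in the double positive libraries. Its double positive values lay within the single positive range, and the log2 fold change was 0.12 (95% interval -0.56 to 0.80). STXBP5 (tomosyn), an inhibitor of SNARE assembly, had 103, 105, 75.6 and 99.0 in the single positive and 5.88, 62.0, 41.7 and 17.6 in the double positive libraries. All double positive values were below all single positive ones, with library 1 lowest. The log2 fold change of STXBP5 was -1.98 (SE 0.63, limma adjusted p = 0.0722), and it passed without double positive library 2 (-2.55, 0.0159), without the batch covariate (0.0389) and with quantile normalization (0.0288).

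VAMP3, a SNARE of recycling endosomes used in phagocytosis and cytokine release, had 101, 69.0, 43.9 and 39.5 in the single positive and 25.6, 96.6, 99.5 and 50.2 in the double positive libraries. The groups overlapped throughout, at a log2 fold change of 0.01 (95% interval -1.10 to 1.12), with -0.73 in batch 1 and 0.75 in batch 2. VAMP8 and VTI1B, SNAREs of late endosome fusion, gave 0.52 (-1.18 to 2.22) and -1.42 (-3.49 to 0.65). A total of 7 VAMP and VTI1 genes were tested, and 0 passed.

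**Figure D3:**
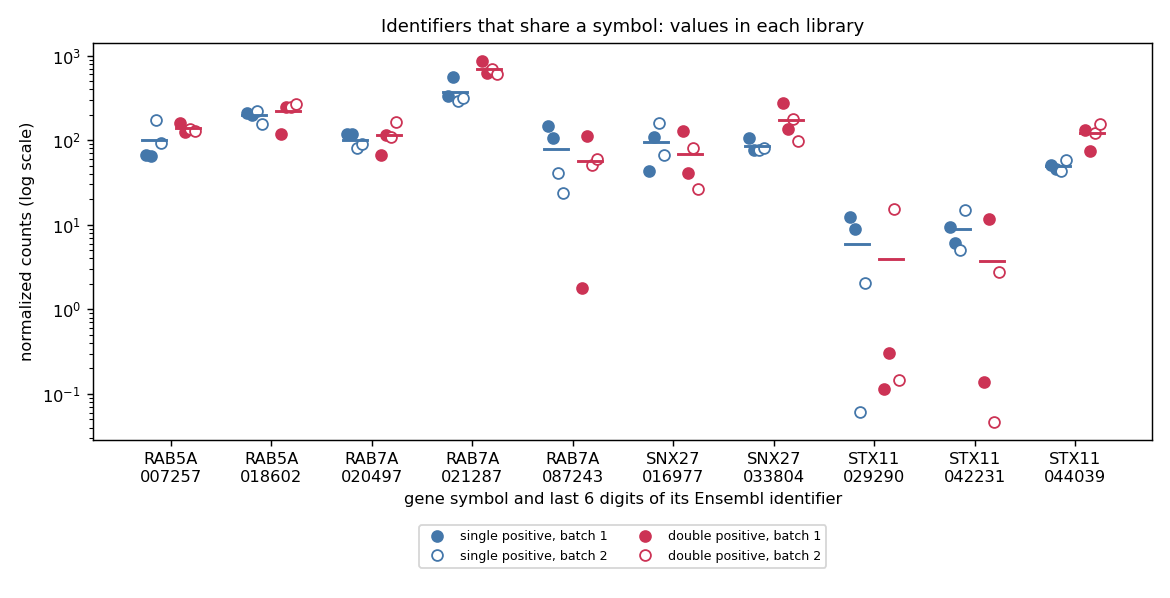
Normalized counts on a log scale (y axis) of the identifiers of RAB5A, RAB7A, SNX27 and STX11 in each library, with single positive in blue, double positive in red, batch 1 filled, batch 2 open and bars at the means. Identifiers are given by their last 6 digits. RAB7A ENSDARG00000021287 and STX11 ENSDARG00000044039 are separated between the populations, and the others overlap.

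No pair of identifiers of one symbol passed a test of unequal response, but with so few libraries the test could hardly be passed. For the 12 pairs of tested identifiers with a shared symbol, the log2 ratio of the pair was compared between populations by a two-sided exact permutation test, whose smallest possible p is 0.0286. The smallest p was that of RAB7A ENSDARG00000020497 over RAB7A ENSDARG00000021287, whose mean log2 ratio was -1.84 in single and -2.65 in double positive libraries (exact permutation p = 0.0571, Benjamini-Hochberg adjusted 0.343). For SNX27, an endosomal nexin that recycles receptors by their PDZ motifs, the log2 fold changes were 0.92 for SNX27 ENSDARG00000033804 and -0.53 for SNX27 ENSDARG00000016977. Their log2 ratio, the latter over the former, differed by -1.45 (exact permutation p = 0.0857, adjusted 0.343). With 12 pairs, no pair could have passed after adjustment unless most reached the smallest p. The test therefore cannot decide whether any pair responded unequally. It also took no account of the batch.

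Precision followed the level. The 27 trafficking genes with a mean of at least 100 over all libraries had SEs of 0.21 to 0.41 and log2 fold changes of -0.59 to 2.11, and 2 were called (7.41%, against 22.8% of 1458 such genes overall). For 14 of these 27 (51.9%, against 33.7% of all such genes) the 95% interval lay between -1 and 1, so a change of 2-fold or more was outside it. Over all levels this held for 15 trafficking genes (12.5%), against 5.56% of all tested genes. The 66 genes with means from 10 to 100 held 2 calls (3.03% against 5.52%). The 27 genes with means under 10 held 0 calls, against 1.61% of 3419 such genes overall. At their SEs of 0.85 to 1.34, changes of several fold could go undetected. Summed over the 120 genes, the normalized counts were 7922, 8216, 7155 and 7271 in the single positive and 8780.0, 9835, 10125 and 9407 in the double positive libraries. This was 0.833% to 0.922% of the column total in single and 0.961% to 1.08% in double positive libraries, with no overlap. Of the partner lists described below, that of adaptors and clathrin also had sums without overlap (1729 to 1936.5 in single and 2362 to 2814 in double positive libraries). The sums of the other partner lists overlapped. Shares of the column total were not taken for other gene sets, so this is no result about the family as a whole. Abundant genes weigh most in the sum. Means rose from 376 to 701 for RAB7A ENSDARG00000021287 and from 469 to 706 for RAB8B. They fell from 492 to 359 for SNX20 and from 573 to 497 for chmp4ba.

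**Figure D4:**
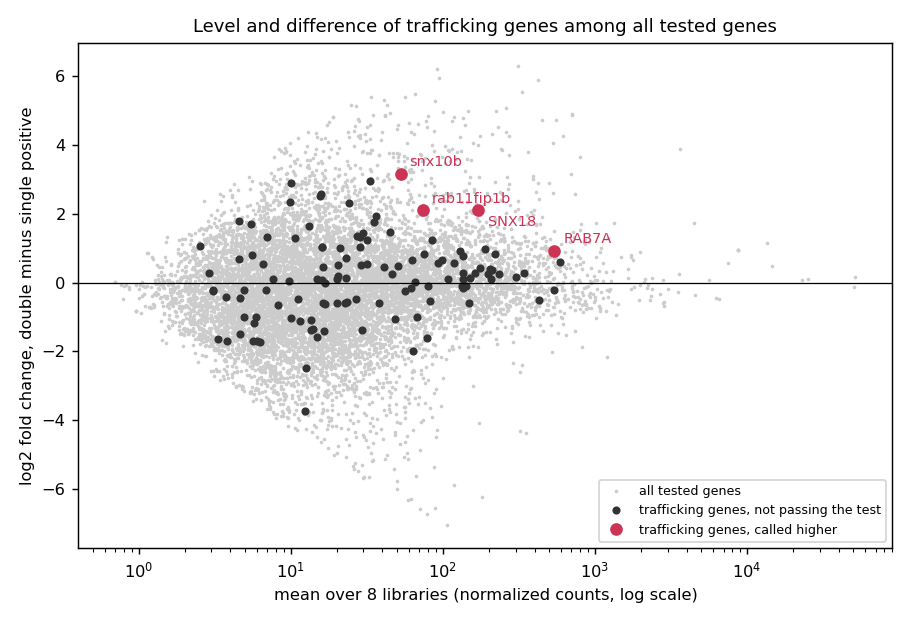
Log2 fold change, double minus single positive (y axis), against the mean normalized count over 8 libraries on a log scale (x axis) for all tested genes (grey), trafficking genes that did not pass (black) and the 4 called higher (red). Trafficking genes with means of at least 100 lie between -0.59 and 2.11.

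Partners of these genes were described from 7 lists, with 153 tested identifiers in all, of which 5 were higher (3.27%, against 3.88% of all tested genes) and 1 lower (0.654% against 2.81%). These shares are at or below the background, so they are no result about the partners as a whole. All 6 calls were lost in batch 1 alone and without the mean-variance trend. In batch 1 alone 0 of all tested genes passed, so that loss is not particular to these genes. The median log2 fold change of the 153 was -0.000967, and it was 0.31 without double positive library 1, 0.28 with median centring, -0.16 in batch 1 and 0.13 in batch 2. The count of higher genes was 9 without double positive library 1, 3 without double positive library 4 or single positive library 4 or 5, and 2 without double positive library 5. Among 57 regulators of Rabs, 2 rose and 1 fell. RIN2 ENSDARG00000074589, an activator of RAB5, had 74.3, 55.2, 33.99 and 45.3 in the single positive and 239, 132, 123 and 208 in the double positive libraries, with no overlap. It rose by a log2 fold change of 1.73 (SE 0.38, limma adjusted p = 0.0114), and the call was lost without double positive library 5 (0.0846). The DENN domain gene dennd4a rose by a log2 fold change of 0.72 (limma adjusted p = 0.0423), from a mean of 608 (SD 129.9, n = 4) to one of 985 (SD 97.3, n = 4). Only 2 libraries could be left out without losing the call, single positive 1 and double positive 2; leaving out any of the other 6 lost it (adjusted p up to 0.161). It was also lost in batch 2 alone (0.0729), with the replicate block (0.0747) and with median centring (0.051). DENND5B, of the same family of Rab activators, fell from 68.1, 65.2, 222 and 34.6 in single to 0.911, 19.5, 1.19 and 4.15 in double positive libraries, a log2 fold change of -4.08 (SE 0.96, limma adjusted p = 0.0157). Its call was lost without single positive library 4 (0.131), the library of its highest value. The lymphocyte marker list moved in the same direction (7 of 8 lower, sums of 724 to 1619 against 58.5 to 162). Its part in the fall of DENND5B was not tested.

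The clathrin adaptor list held 2 risen genes among 23, with a median of 0.39. DAB2, an adaptor for receptors of the LDL receptor family, had 25.6, 85.0, 9.86 and 12.5 in the single positive and 126, 215, 349 and 288 in the double positive libraries. It rose by a log2 fold change of 3.25 (SE 0.57, limma adjusted p = 0.00211), and the estimate was 1.79 within batch 1 and 4.72 within batch 2. The epsin gene EPN2 had 142, 128, 101 and 128 in the single positive and 410.1, 271, 478 and 368 in the double positive libraries, and rose by 1.59 (SE 0.28, adjusted p = 0.00223). Both passed whichever library was left out. Among 17 partners in phosphoinositide signalling and fusion, PIKFYVE, the lipid kinase that controls endosome and lysosome size, rose by a log2 fold change of 1.39 (limma adjusted p = 0.0169), from a mean of 115 (SD 33.8, n = 4) to one of 309 (SD 109.7, n = 4). The call was lost without double positive library 4 or 5 or single positive library 4 or 5 (adjusted p up to 0.112), and the list median was -0.65. The ESCRT partner (14 tested), retromer and WASH partner (18), other SNARE (16) and exocyst (8) lists held 0 calls, with medians of 0.20, 0.18, 0.11 and 0.02.

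**Figure D5:**
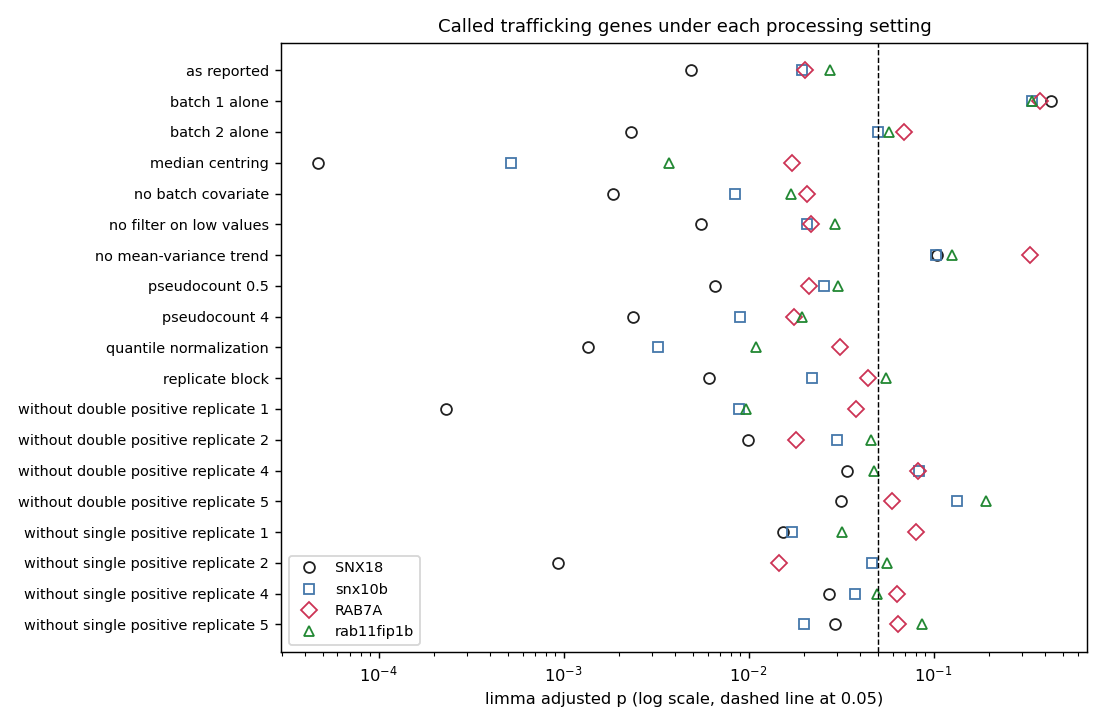
Limma adjusted p on a log scale (x axis) of SNX18, snx10b, RAB7A ENSDARG00000021287 and rab11fip1b under the reported fit and each of 18 alternatives (y axis), with the threshold of 0.05 dashed. In batch 1 alone and without the mean-variance trend all 4 lie above 0.05, and SNX18 lies below it under the other alternatives. In batch 1 alone 0 of all tested genes passed.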

How the data were processed

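RNA was measured in 8 libraries, amplified from 1 ng of total RNA, per the labels' protocols. CASAVA 1.8.2, cutadapt and RSEM 1.2.3 with build Zv9 are named in the submitters' processing notes, without roles. The authors deposited a linear signal per gene and library under the name normalized counts, by a method not stated, and no value is 0 (lowest 0.0143). Symbols from an identifier table matched 8512 of 10479 identifiers (81.2%), so a trafficking gene without a symbol is not counted. Genes at 1 or more, with each column scaled to 1000000, in at least 4 libraries were tested (10127, with 352 left out). Log2 of the value plus 1 was fitted in limma 3.58.1 (R 4.3.3) by a two-sided test with library batch as covariate and the variance trended on the mean. The log scale understates changes of low genes. If the authors had adjusted for batch, the p-values would be too small. Within a batch the 2 populations deviated in opposite directions (correlations given at the end), and whether such an adjustment lies behind this was not tested. The code was tested on simulated data. Members and lists were chosen with earlier results of these data known. By the rule, 29 genes are named: the reporter genes, every called member, the highest mean of each role group and up to 3 called genes of each pathway list. A further 31 were named after their values were seen. Alternatives were the pseudocount, filter, scaling, batch term, replicate block, trend, batches alone and each library left out.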

Additional observations from a re-analysis of the deposited data

Results flagged for a closer look

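Among the genes named in the text, 5 groups of 4 libraries held a library far from the other three on the log2 scale by Dixon's test at the 95% level. Chance flags about 1 in 20 independent groups, and 120 groups were looked at, so the count alone is no more than chance would give. That rate is only approximate here, because the groups share libraries and 31 genes were named after their values were seen. SNX18 had 134 in single positive library 2, against 41.03 to 49.8 in the rest of that population. RAB5A ENSDARG00000018602 had 119 in double positive library 1, against 244 to 270.2. VPS4B had 107 in double positive library 2, against 143 to 151. STX11 ENSDARG00000029290 had 15.3 in double positive library 4, against 0.113 to 0.309. MPEG1 ENSDARG00000055290 had 167 in double positive library 1, against 394 to 452. Of these 5 groups, 2 concern double positive library 1.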

How the results depend on the processing

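The number of trafficking genes called higher (4) was 6 with median centring (adding RAB20 and rab1ba), 6 without the batch covariate (adding RAB20 and STX11 ENSDARG00000044039), 6 with quantile normalization (adding RAB20 and SNX10) and 5 with a pseudocount of 4 (adding RAB20). It was 0 in batch 1 alone, 2 in batch 2 alone (SNX18 and RAB20) and 0 without the mean-variance trend, and ran from 1 to 7 with 1 library left out. The number called lower (0) was 3 without the batch covariate (SNX29, snx22 and STXBP5), 1 without the trend (snx22), 1 with a pseudocount of 4 (SNX29), 2 with quantile normalization (SNX29 and STXBP5), and 0 to 1 with 1 library left out. The median log2 fold change (0.15) was 0.48 in batch 2 alone, and 0.0414 to 0.40 with 1 library left out. Over all genes, 393 higher and 285 lower became 0 and 0 in batch 1 alone, 412 and 152 in batch 2 alone, 124 and 195 without the trend, and 169 to 497 and 101 to 308 with 1 library left out. Nothing states whether libraries with equal replicate numbers share hearts. Equal numbers deviated with correlations of -0.29 to -0.11, and unequal numbers of the same batch with -0.26 to -0.10. Libraries of different batches had positive correlations, from 0.0942 to 0.283. The populations thus deviated in opposite directions within a batch, and why they did so was not tested. The deviations were taken from the mean of each population without removing this batch pattern, so the check cannot decide whether the numbers pair the libraries. With the replicate block in place of batch, 3 trafficking genes were higher, rab11fip1b being lost (limma adjusted p = 0.0552) and, among the partners, dennd4a (0.0747). Over all genes, 297 were called higher and 176 lower with that block. Directions reversed for some genes without a call. In batch 1 alone these were MPEG1 ENSDARG00000078569 (-0.95), RAB5A ENSDARG00000018602 (-0.27), RAB11A (-0.22), rab44 (-0.13), VPS50 ENSDARG00000002880 (-1.07), STXBP2 (-0.0495), VAMP3 (-0.73), RAB7A ENSDARG00000020497 (-0.41), RAB2A (-0.14) and SNX27 ENSDARG00000016977 (0.0738). In batch 2 alone they were MPEG1 ENSDARG00000055290 (0.0699), RAB7A ENSDARG00000087243 (0.82), CHMP2A (-0.22), STX11 ENSDARG00000029290 (1.26) and VAMP8 (-0.31). With quantile normalization they were RAB5A ENSDARG00000018602 (-0.10), STXBP2 (-0.042), VAMP3 (-0.084), RAB7A ENSDARG00000020497 (-0.0266), RAB32 (-0.0159) and VPS4B (-0.0245). Median centring gave 0.0776 for chmp4ba, and a pseudocount of 0.5 gave -0.0467 for MPEG1 ENSDARG00000078569. With 1 library left out the range was -0.88 to 0.72 for MPEG1 ENSDARG00000078569, -0.0695 to 0.39 for RAB5A ENSDARG00000018602, -0.52 to 1.70 for VPS50 ENSDARG00000002880, -0.0602 to 0.37 for STXBP2, -0.33 to 0.53 for VAMP3, -0.11 to 0.38 for RAB7A ENSDARG00000020497, -1.71 to 0.43 for RAB7A ENSDARG00000087243, -0.0226 to 0.51 for RAB10 and -0.11 to 0.36 for VPS4B. The cause of these changes was not tested. Read depth is unknown, so no counting error can be given.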
